A study of Mus musculus with 491 samples.

Results

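The genes described here are 10 of the 19494 genes measured in single cells of the mouse inner ear primordium: Ppp1r14a, Btbd17, Spsb4, Mfap4, Cotl1, Phldb2, Arl4a, Vstm2b, Dlk2 and Enc1. They were chosen by their FPKM, which was high in cells with Neurod1 and little or no Stmn2, the signature of a young neuroblast, and none of them is a proneural transcription factor. Their height in such cells was thus the basis of the choice and is given as a description, with no test. Of the 10, 5 had their highest mean there among the classes compared (Phldb2, Arl4a, Vstm2b, Dlk2 and Enc1), and the other 5 had a higher mean in Neurod1-positive cells that already held Stmn2, so they are high in later neurons as well. After a correction for signal shared between wells, Btbd17, Spsb4 and Cotl1 joined the 5.

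The cells came from embryos at E10.5 that carried Pax2-Cre/+ and Ai14-tdTomato/+, a pairing in which cells that have expressed Cre under Pax2 control, and their descendants, are red fluorescent. Otic vesicles with the tissue around them were dissected, tdTomato-positive cells were sorted into plates, and 1 cell gave 1 library. There is 1 genotype and no untreated or mutant group, so the comparisons are between kinds of cells. Replicate 1 holds 237 cells and replicate 2 holds 254 cells. The sources used here do not say what a replicate stands for, so a p-value measures only the spread between these 2 replicates, which may be technical.

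Otic neuroblasts arise in the floor of the otic vesicle, where Neurog1 starts the programme and its target Neurod1 carries it on. They loosen from the epithelium, move out and gather in the ganglion that will serve hearing and balance. Leaving an epithelium calls for changes in actin, in cell contacts and in the anchoring of microtubules, and several of the 10 genes encode proteins of that kind.

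Ppp1r14a encodes an inhibitor of myosin phosphatase, and Cotl1 an actin-binding protein of the coactosin type. Phldb2 encodes a membrane-binding protein that holds microtubule ends at the cell cortex, and Arl4a a small GTPase that brings cytohesins to the plasma membrane. Enc1 and Spsb4 encode adaptors of cullin-based ubiquitin ligases, Enc1 through a BTB and kelch protein that also binds actin and Spsb4 through a SOCS box. Mfap4 encodes a secreted protein of extracellular microfibrils. Vstm2b encodes an immunoglobulin-type membrane protein, Dlk2 a membrane protein related to the Notch ligands, and Btbd17 a protein with a BTB domain.

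GENCODE M21 places the genes as follows on GRCm38 (mm10), and lists all 10 as protein coding. Ppp1r14a lies on chromosome 7 (29289308 to 29293801, plus strand), Vstm2b on chromosome 7 (40898328 to 40930594, plus strand) and Dlk2 on chromosome 17 (46297421 to 46303271, plus strand). Btbd17 lies on chromosome 11 (114791217 to 114795945, minus strand) and Mfap4 on the same chromosome (61485431 to 61488900, plus strand). The others are Spsb4 on chromosome 9 (96943482 to 97018843, minus strand), Cotl1 on chromosome 8 (119809222 to 119840544, minus strand), Phldb2 on chromosome 16 (45746243 to 45953598, minus strand), Arl4a on chromosome 12 (40005447 to 40038025, minus strand) and Enc1 on chromosome 13 (97241105 to 97253034, plus strand).

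Neurod1 and Neurog1 bind E-boxes, so promoters are shown for Ppp1r14a and Btbd17, both high in early and later Neurod1-positive cells, and for Phldb2 and Dlk2, both highest in the early ones. Each stretch, taken from the promoter table of RefSeq on GRCm38.p6, holds the first 150 bases of a window that begins 250 bases before an annotated start, and any E-box, CANNTG, stands in capitals. The Ppp1r14a stretch is chr7:29289070-29289219 on the plus strand, with its E-box 185 bases before the start, and the Dlk2 stretch is chr17:46297233-46297382 on the plus strand, with its E-box 213 bases before. The Phldb2 stretch is chr16:45844479-45844628 on the minus strand, with its E-box 163 bases before a start inside the annotated gene, and the Btbd17 stretch is chr11:114795993-114796142 on the minus strand.
Ppp1r14a: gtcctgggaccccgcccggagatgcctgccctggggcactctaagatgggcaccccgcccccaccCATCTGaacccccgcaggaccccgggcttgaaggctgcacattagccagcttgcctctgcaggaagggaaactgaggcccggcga
Dlk2: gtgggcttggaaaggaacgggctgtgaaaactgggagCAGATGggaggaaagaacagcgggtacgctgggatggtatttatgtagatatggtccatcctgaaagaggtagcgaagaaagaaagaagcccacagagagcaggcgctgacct
Phldb2: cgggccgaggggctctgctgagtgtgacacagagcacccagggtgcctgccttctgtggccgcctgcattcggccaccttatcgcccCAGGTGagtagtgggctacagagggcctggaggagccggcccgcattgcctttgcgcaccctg
Btbd17: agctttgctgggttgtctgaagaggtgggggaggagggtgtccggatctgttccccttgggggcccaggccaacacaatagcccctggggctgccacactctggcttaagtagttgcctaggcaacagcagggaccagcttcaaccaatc
The Ppp1r14a and Dlk2 stretches hold the same E-box, read as CATCTG on one strand and CAGATG on the other. Phldb2 holds CAGGTG, and the Btbd17 stretch holds none. A further Dlk2 window, for an annotated start at 46297928, is not printed and held 0 E-boxes in its 250 bases. RefSeq windows were matched for 7 of the 10 genes, 9 windows in all, and 4 of these 9 held a CANNTG in the 250 bases before the start, against 66.2% of 32851 windows of that length. CATCTG or CAGATG stood in 2 of the 9 windows and in 14.4% of all windows, CAGGTG or CACCTG in 2 and in 17.2%, and CAGCTG in 0 and in 13.0%. Each of these motifs was searched on both strands and is itself a CANNTG. These are letter matches only, and the share with a CANNTG was not above that of promoters at large.

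Cells were sorted into classes by marker genes at an FPKM of at least 10, where FPKM counts fragments per length of transcript and per library size. Early neuroblast-like cells held Neurod1 but not Stmn2 (64 cells, 18 in replicate 1 and 46 in replicate 2). Neurod1 and Stmn2 together marked differentiating neuron-like cells (76). Stmn2 with Neurod1 below 10 FPKM marked the cells called neuron-like without Neurod1 (28). Of the cells with neither, neural tube progenitor-like cells lacked Epcam and held neural tube genes (85), otic epithelium-like cells held Epcam and otic genes, at least 2 in each case (105), and surface ectoderm-like cells held Epcam and Trp63 (29). Cells with at least 3 markers of mesenchyme, endothelium or macrophages were set apart first. There were 23 mesenchyme-like, 4 macrophage-like, 3 endothelium-like, 29 other epithelial and 6 unassigned cells.

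The early neuroblast label was checked against genes that did not set it. Eya2 was positive in 81.2% and Insm1 in 45.3% of early neuroblast-like cells, and in 5.7% and 1.9% of otic epithelium-like cells. Neurog1 was positive in 10.9% of early neuroblast-like cells. Epcam was still positive in 56.2% of them and Isl1 in 73.4%. Markers of other cell types at 0% in them were all 6 for macrophages, 3 of 7 for endothelium (Cdh5, Tek and Cldn5) and 4 of 8 for mesenchyme (Twist1, Prrx1, Col1a1 and Pdgfra). Prrx2 (32.8%) and Egfl7 (18.8%) were positive, as they were in 34.3% and 27.6% of otic epithelium-like cells. The other mesenchyme markers were positive in 3.1% (Col3a1), 4.7% (Lum) and 7.8% (Col1a2) of early neuroblast-like cells, and Pecam1, Kdr and Emcn of endothelium in 1.6% each. The neural tube marker Fabp7 was positive in 92.9% of neural tube progenitor-like cells but also in 39.1% of early neuroblast-like cells. Pax2 itself was positive in 0% of early neuroblast-like and 2.9% of otic epithelium-like cells.

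A gene is called found in a cell at an FPKM of at least 1. A cell had 2552 to 6403 genes found (median 4513), and the medians of early neuroblast-like and differentiating neuron-like cells, 4406 and 4611, lay close to the 4714 of otic epithelium-like cells and the 4170 of neural tube progenitor-like cells. Wells were not fully separate. Of 1128 pairs of plate rows, 38 shared rare genes column by column, with a median share of at least 0.207 against at most 0.0757 in all other pairs, and the receiving well held a median of 3.78% of the level in its source. Of the 38 linked pairs, 34 lay within 1 plate and the rest joined rows of different plates. How the sharing arose was not tested, and transfer is used here only as a name for it. A source well was present for 337 cells. Levels are therefore given as deposited and, where it matters, after setting to 0 each value whose source well was at least 5 times as high, with the classes made anew (51 early neuroblast-like, 57 differentiating neuron-like, 118 neural tube progenitor-like and 114 otic epithelium-like cells).

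Ppp1r14a was the gene most tightly bound to Neurod1. Its FPKM ran from 0 through a median of 80.2 to 729 in early neuroblast-like cells and from 0 through 154 to 611 in differentiating neuron-like cells. In early neuroblast-like cells 57 of 64 held it (89.1%, exact 95% binomial interval 78.8 to 95.5), and in otic epithelium-like cells 2 of 105 (1.9%, 0.2 to 6.7). There were finds in 3 of 85 neural tube progenitor-like cells and in 0 of 29 surface ectoderm-like cells (upper limit 11.9%). The Neurod1-positive classes overlapped widely, and most cells of the epithelial and neural tube progenitor classes lay at 0. Mean log2(FPKM + 1) was 4.99 in replicate 1 and 5.76 in replicate 2 for early neuroblast-like cells, against 0.09 and 0.03 for otic epithelium-like cells. Across all cells the correlation of Ppp1r14a with Neurod1 was 0.91, the highest between any of the 10 and any other gene. Intervals here cover counting error over cells only.

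**Figure D1:**
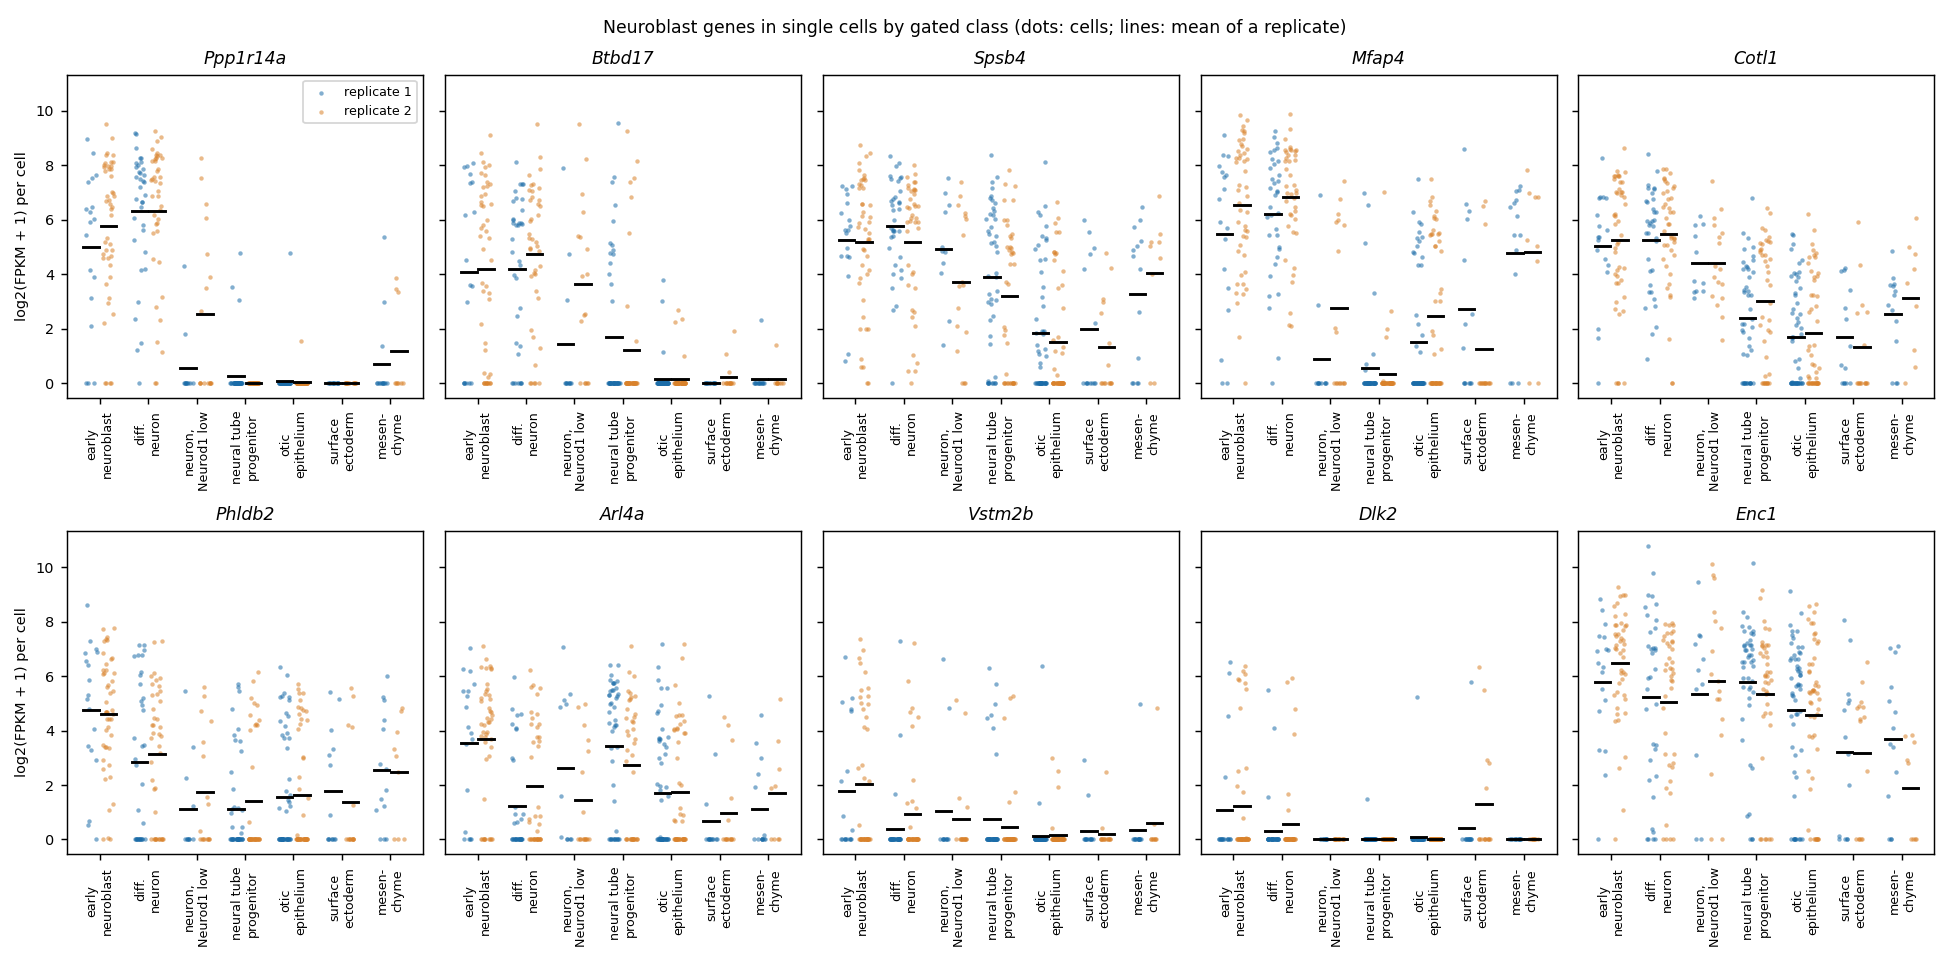
Log2(FPKM + 1) of each of the 10 genes in single cells, by class, with blue dots for replicate 1, orange dots for replicate 2 and a black line at each replicate's mean. Ppp1r14a, Btbd17, Spsb4, Mfap4 and Cotl1 are high in both Neurod1-positive classes on the left, while Phldb2, Arl4a, Vstm2b, Dlk2 and Enc1 have their highest means in the early neuroblast-like cells.

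Cotl1 was spread more widely. Its FPKM had a median of 45.4 (0 to 395) in early neuroblast-like cells, 55.6 (0 to 340) in differentiating neuron-like cells and 1.03 (0 to 72.8) in otic epithelium-like cells. The share of cells with it was 92.2% of early neuroblast-like, 70.6% of neural tube progenitor-like and 50.5% of otic epithelium-like cells, so its difference lay in level more than in presence. The 4 macrophage-like cells, all of replicate 1, had 47.9 to 182 FPKM, and their mean of 6.27 on the log2(FPKM + 1) scale was above the 5.19 of early neuroblast-like cells. Cotl1 was thus high in neurons and in these 4 macrophage-like cells, and was also found in many neural tube and otic cells.

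Phldb2 was held more often and at a higher level by early neuroblast-like cells than by the neurons, though most neurons held it too. The genes were chosen for height in cells low in Stmn2, so this difference is a description with no test. Of early neuroblast-like cells 58 of 64 had it (90.6%, interval 80.7 to 96.5), as did 49 of 76 differentiating neuron-like cells (64.5%, 52.7 to 75.1). The median FPKM was 26.5 (0 to 390) in the early neuroblast-like and 9.72 (0 to 156) in the differentiating neuron-like cells. Replicate means on the log2(FPKM + 1) scale were 4.75 and 4.62 in early neuroblast-like cells, against 2.84 and 3.14 in differentiating neuron-like and 1.58 and 1.61 in otic epithelium-like cells. Both neuroblast means lay above those of each class named here. After correction for transfer the mean was 5.67 in early neuroblast-like cells and 2.95 in differentiating neuron-like cells.

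Arl4a had a similar step and a second home. Shares with Arl4a were 76.6% of early neuroblast-like cells (interval 64.3 to 86.2), 36.8% of differentiating neuron-like cells (26.1 to 48.7), 42.9% of otic epithelium-like cells and 65.9% of neural tube progenitor-like cells (54.8 to 75.8). Its replicate means were 3.53 and 3.70 in early neuroblast-like cells and 3.43 and 2.72 in neural tube progenitor-like cells. These neighbours in the order were closer in replicate 1 than the replicates of the neural tube progenitor-like cells were to each other. In the 3 endothelium-like cells, all of replicate 2, Arl4a was found in 2, at 71.8 and 139 FPKM.

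Enc1 was the most widely held of the 10. It was present in 62 of 64 early neuroblast-like cells, 74 of 85 neural tube progenitor-like cells and 85 of 105 otic epithelium-like cells. Median FPKM was 122 (0 to 621) in early neuroblast-like cells, 65.8 (0 to 1780) in differentiating neuron-like cells and 43.0 (0 to 557) in otic epithelium-like cells. Its replicate means of 5.79 and 6.47 in early neuroblast-like cells overlapped those of neural tube progenitor-like cells, 5.80 and 5.34.

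Spsb4 and Btbd17 stayed high in differentiating neuron-like cells. Spsb4 had a median FPKM of 49.3 (0 to 434) in early neuroblast-like, 64.2 (0 to 322) in differentiating neuron-like and 15.7 (0 to 329) in neural tube progenitor-like cells. Btbd17 had medians of 25.7 (0 to 557), 36.4 (0 to 738) and 0 (0 to 744) in the same classes. Btbd17 was present in 70.3% of early neuroblast-like cells and 5.7% of otic epithelium-like cells, and its early neuroblast-like quartiles lay far apart, at 0.135 and 148 FPKM.

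Among the genes for surface and secreted proteins, Mfap4 was the most abundant. Early neuroblast-like cells had a median FPKM of 112 (0 to 916), with 93.8% holding it, against 0 (0 to 181) and 42.9% in otic epithelium-like cells. Mesenchyme-like cells held it as well, with a median of 42.3 (0 to 230) and replicate means of 4.80 and 4.81. Few neural tube progenitor-like cells held it, 9 of 85. Mfap4 thus covered neurons, mesenchyme and part of the epithelium.

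Among early neuroblast-like cells 26 of 64 held Vstm2b (40.6%, interval 28.5 to 53.6), against 13 of 76 differentiating neuron-like cells (17.1%, 9.4 to 27.5). The otic epithelium-like class held it in 5 of 105 cells. For Dlk2 the early neuroblast-like count was 16 of 64 cells (25%, 15 to 37.4), with 9 of 76 differentiating neuron-like and 1 of 105 otic epithelium-like cells. Its other home was the surface ectoderm-like class, with 6 of 29 cells (20.7%, 8.0 to 39.7). In that class 1 of the cells was of replicate 1 and 5 were of replicate 2, and on replicate means (1.08 and 1.22 in early neuroblast-like, 0.41 and 1.3 in surface ectoderm-like cells) the classes overlapped.

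**Figure D2:**
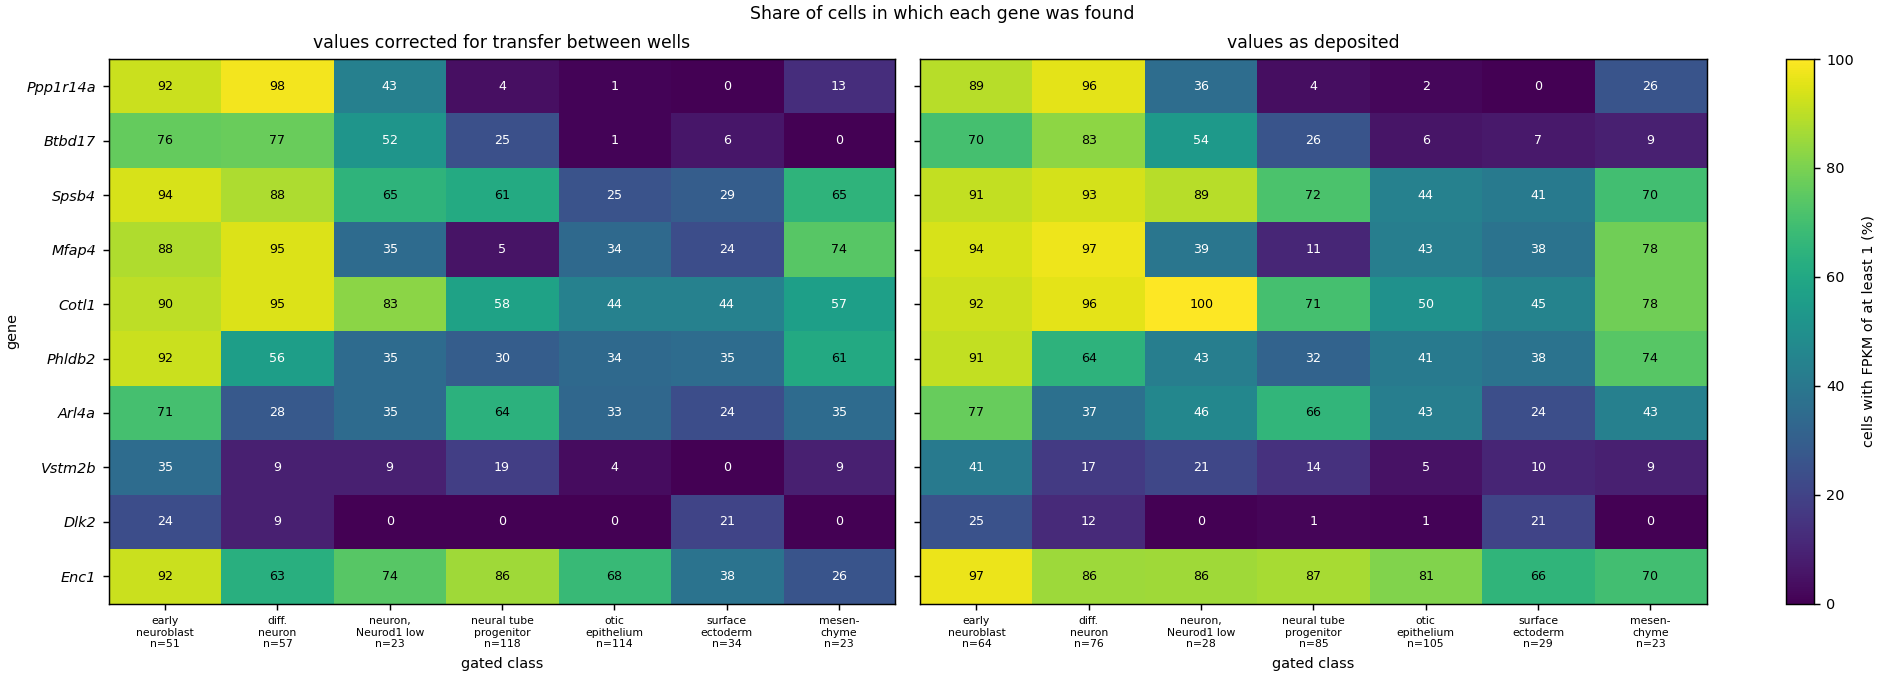
Percent of cells of each class with an FPKM of at least 1, for the 10 genes in rows and 7 classes in columns, after correction for transfer between wells on the left and as deposited on the right. In early neuroblast-like cells the deposited shares run from 25% for Dlk2 to 97% for Enc1, and the otic epithelium-like shares of Btbd17, Spsb4 and Enc1 are lower after correction.

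The number of the 10 held per cell was also counted, as a description that follows largely from the single shares above. At least 8 of the 10 occurred in 38 of 64 early neuroblast-like cells (59.4%), 22 of 76 differentiating neuron-like cells (28.9%) and 2 of 85 neural tube progenitor-like cells. No otic epithelium-like or surface ectoderm-like cell reached 8, and the most seen there was 6. With the correction, 26 of 51 early neuroblast-like cells (51.0%) and 9 of 57 differentiating neuron-like cells (15.8%) reached 8.

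The levels were also laid out by the level of Neurod1. The genes were chosen for being high in Neurod1-positive cells, so a rise with Neurod1 is part of that choice and no separate result. The 6 cells just outside the gate, with Neurod1 at 1 to 10 FPKM and low Stmn2, averaged 0.98 for Ppp1r14a, 1.19 for Mfap4 and 5.5 for Enc1 on the log2(FPKM + 1) scale. The 22 early neuroblast-like cells just inside it, at 10 to 100 FPKM, averaged 3.02, 4.14 and 5.38, and the 42 cells at 100 or more averaged 6.86, 7.35 and 6.75. Ppp1r14a and Mfap4 thus stepped up across the gate, and Enc1 did so only among the highest cells. Btbd17 was found in 45.5% of the cells at 10 to 100 and 83.3% of those at 100 or more, while Arl4a stood at 72.7% and 78.6%. Transfer between linked wells may also give low values of Neurod1, and its part in this grading was not tested.

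**Figure D3:**
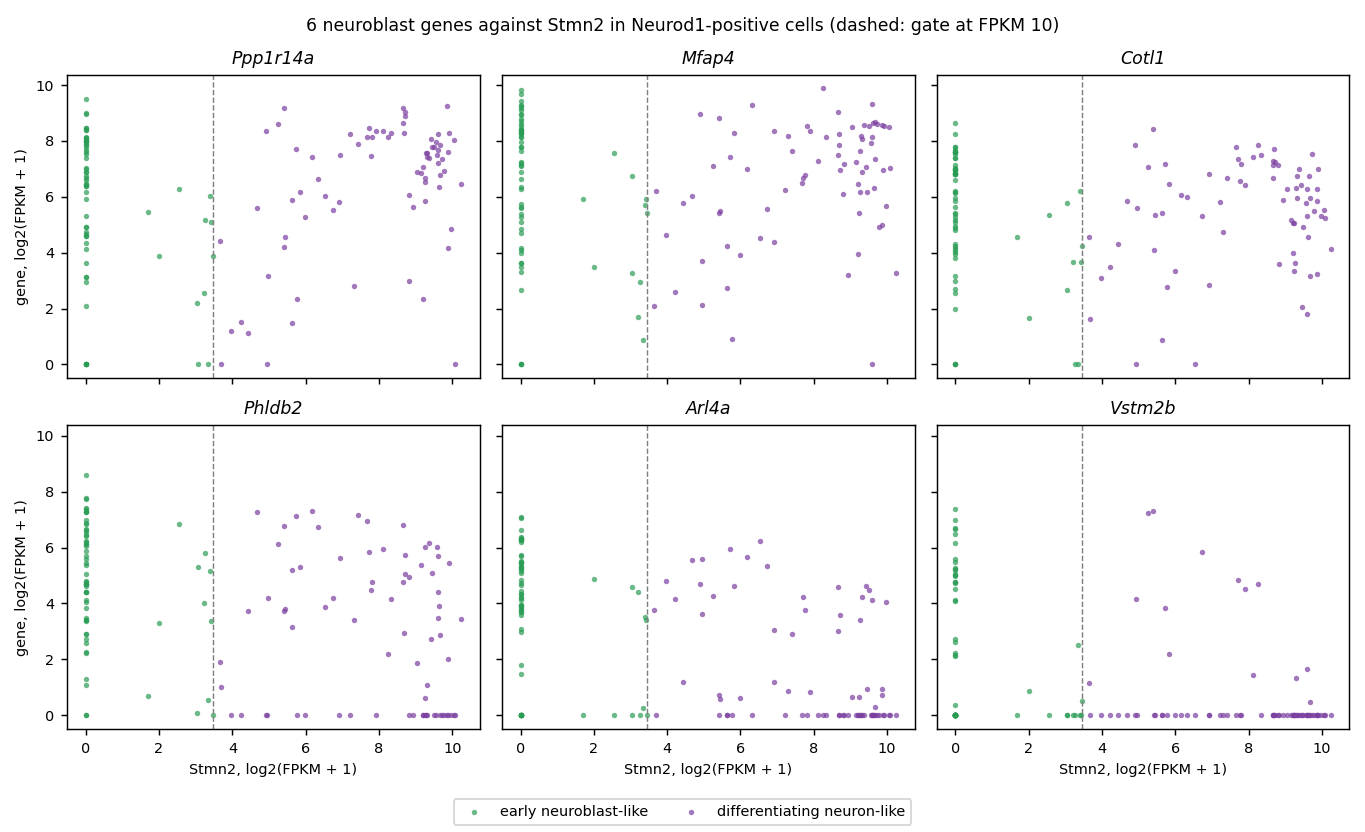
Log2(FPKM + 1) of 6 of the genes against that of Stmn2 in single Neurod1-positive cells, with the dashed line at the gate of 10 FPKM and colours for early neuroblast-like and differentiating neuron-like cells. Ppp1r14a, Mfap4 and Cotl1 stay high at every level of Stmn2, whereas most cells with the highest Stmn2 are at 0 for Vstm2b and many are at 0 for Arl4a and Phldb2.

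Epcam, the adhesion molecule of epithelia, was still positive in 36 early neuroblast-like cells and low in 28, which allowed the 10 genes to be set against the epithelial state of the cell, with no test. Arl4a averaged 3.58 in Epcam-positive and 3.76 in Epcam-low cells, Dlk2 1.06 and 1.34, and Phldb2 4.48 and 4.89. Cotl1 averaged 4.85 in Epcam-positive and 5.63 in Epcam-low cells, but its order differed between replicates (5.33 and 4.67 in replicate 1, 4.67 and 6.01 in replicate 2). So did that of Enc1, at 6.25 and 6.31 (6.82 and 4.5 in replicate 1, 6.03 and 7.04 in replicate 2). Phldb2 and Spsb4 were lower in Epcam-positive cells of both replicates, and the genes as a set were thus present on both sides of the loss of Epcam. After correction for transfer 22 of 51 cells were Epcam-positive. Ppp1r14a then averaged 5.83 in Epcam-positive and 7.18 in Epcam-low cells, Mfap4 5.90 and 7.74, and Btbd17 3.99 and 6.04. The order was the same in both replicates for each of the 3, and also for Spsb4, Cotl1 and Phldb2, which were lower in Epcam-positive cells too. That of Vstm2b differed between replicates. Enc1 had the opposite order in both replicates, at 7.0 in Epcam-positive and 6.28 in Epcam-low cells (6.68 and 4.93 in replicate 1, 7.19 and 6.71 in replicate 2). Dlk2 was also higher in Epcam-positive cells of both replicates (1.38 and 0.87 in replicate 1, 1.62 and 1.3 in replicate 2). So was Arl4a (3.09 and 2.73 in replicate 1, 3.93 and 3.91 in replicate 2), though its means over all these cells hardly differed (3.629 and 3.626). As deposited, the means of Dlk2 and Arl4a were lower in Epcam-positive cells, with an order that differed between replicates.

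Vstm2b and Dlk2 also overlapped with each other. This was looked at after the values had been seen. Of the 16 early neuroblast-like cells with Dlk2, 12 held Vstm2b (75.0%), against 14 of the 48 without Dlk2 (29.2%), while Arl4a was held by 16 of 16 and 33 of 48 (68.8%) and Phldb2 by 16 of 16 and 42 of 48 (87.5%). The gene most like either of them over all cells was the same, Rgs13, a regulator of G-protein signalling, with a correlation of 0.41 with Vstm2b and 0.40 with Dlk2. Finds of Rgs13 numbered 19 of 64 in early neuroblast-like cells (29.7%), 4 of 76 in differentiating neuron-like cells and 1 of 105 in otic epithelium-like cells. It was found in 11 of the 16 cells with Dlk2 (68.8%) and in 8 of the 48 without (16.7%). The epidermal factor Trp63 was found in 0 of the 16 early neuroblast-like cells with Dlk2, and in 7 of the 48 without. After correction for transfer, Rgs13 was found in 8 of 12 cells with Dlk2 and 7 of 39 without, and Trp63 in 0 of 12 and 1 of 39.

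Over all cells the 45 pairwise correlations between the 10 genes ran from -0.01 to 0.71, with a median of 0.21 and 7 above 0.5. The strongest were Ppp1r14a with Mfap4 (0.71), with Btbd17 (0.66) and with Cotl1 (0.65). Among the 64 early neuroblast-like cells alone the range was -0.08 to 0.66 and the median 0.31, with 9 above 0.5 and 1 below 0. After correction for transfer, in 51 such cells, the median was 0.22, with 4 above 0.5 and 6 below 0. Cells share plates, signal from linked wells and depth, so these values are descriptions. Genes chosen for height in Neurod1-positive cells must also go with Neurod1 and its companions over all cells, so the next ranking restates the choice. The genes whose pattern was most like the mean of the 10 were Neurod1 (0.79), Eya2 (0.76), Insm1 (0.74), Nhlh2 (0.68), Tmsb4x (0.66), Stmn1 (0.62), Elavl4 (0.60), Afap1 (0.58), Hes6 (0.58) and Gadd45g (0.57). In the 154 cells without a source well the same 10 genes had correlations of 0.57 to 0.79.

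Singly, the members fell into groups by the gene most like each. Neurod1 came first for Ppp1r14a (0.91), Mfap4 (0.71), Cotl1 (0.62) and Phldb2 (0.46), followed by Insm1 for Ppp1r14a (0.82) and Cotl1 (0.61) and Eya2 for Mfap4 (0.64) and Phldb2 (0.42). Btbd17 was most like Nhlh2 (0.68) and Insm1 (0.67), and Spsb4 most like the neuronal RNA-binding gene Elavl4 (0.58) and Eya2 (0.53). Arl4a, with Fgfr3 and Pou3f2 (0.26 each), and Enc1, with Tmsb4x (0.35) and Trp53i11 (0.33), had no close partner. The second gene after Rgs13 was Prdm12 for Vstm2b (0.28) and Calml4 for Dlk2 (0.33), and in the cells without a source well Calml4 stood at 0.12 and Rgs13 at 0.35 for Dlk2, while for Vstm2b Prdm12 (0.41) stood above Rgs13 (0.31).

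How far each gene reached beyond Neurod1-positive cells also differed. Of the cells that held a gene, those outside the Neurod1-positive classes made up 13.9% for Ppp1r14a (27 of 194), 25.7% for Dlk2 (9 of 35) and 26.9% for Btbd17 (52 of 193). The share was 39.2% for Mfap4, 43.7% for Vstm2b, 48.6% for Phldb2, 52.4% for Spsb4 and 54.1% for Cotl1. It was highest for Enc1 (249 of 415, or 60%) and Arl4a (151 of 249, or 60.6%). After correction for transfer each share was higher, at 16.3% for Ppp1r14a, 57.4% for Vstm2b, 69.0% for Enc1 and 71.4% for Arl4a. Most cells of the series lie outside the Neurod1-positive classes, so a gene held evenly by all cells would also have a high share.

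Outside the otic lineage, neural tube progenitor-like cells were compared with surface ectoderm-like cells, a contrast that had no part in the choice of the genes. Arl4a, Enc1 and Spsb4 were higher in the neural tube cells. Arl4a averaged 3.43 and 2.72 in neural tube progenitor-like cells of the 2 replicates, against 0.69 and 0.97 in surface ectoderm-like cells, a difference of 2.24 (SE 0.50, adjusted p = 0.00537, limma on class means per replicate). Enc1 averaged 5.80 and 5.34 against 3.19 and 3.19, a difference of 2.38 (SE 0.54, adjusted p = 0.00616). Both were higher on 6 of 6 plates.

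Spsb4 averaged 3.91 and 3.19 in neural tube progenitor-like cells, against 1.98 and 1.32 in surface ectoderm-like cells (difference 1.90, SE 0.52, adjusted p = 0.0239). Of the 9 genes other than Dlk2, 3 passed, all higher, while over all 10241 genes tested 7.27% passed, 2.22% higher and 5.06% lower. After correction for transfer Arl4a (difference 2.01, adjusted p = 0.0426) and Enc1 (3.57, adjusted p = 0.00606) passed, while Spsb4 (1.97, adjusted p = 0.144) did not. The call of Spsb4 was also lost at a gate of 30 FPKM (adjusted p = 0.0619) and, with that of Enc1 (adjusted p = 0.0529), without the filter on low values. When the mean FPKM was logged Enc1 did not pass (adjusted p = 0.119) but Btbd17 (4.94, adjusted p = 3.39e-05) and Mfap4 (-2.39, adjusted p = 0.0084) did, while Arl4a passed in each of these.

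Dlk2 is given without a test here. It was found in 35 cells in all and in 9 outside the Neurod1-positive classes, and the filter on low values asked for 25, so it entered the comparison only through the cells for which it was chosen. It averaged 0.03 and 0.00 in neural tube progenitor-like cells of the 2 replicates, against 0.41 and 1.3 in surface ectoderm-like cells.

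The other 6 did not pass and spanned both directions. Cotl1 (1.21, SE 0.45, adjusted p = 0.127) and Btbd17 (1.35, SE 0.59, adjusted p = 0.216) had higher means in the neural tube cells, and Mfap4 (-1.56, SE 0.59, adjusted p = 0.131) a lower one. For Ppp1r14a, Phldb2 and Vstm2b the differences were between -0.30 and 0.34.

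**Figure D4:**
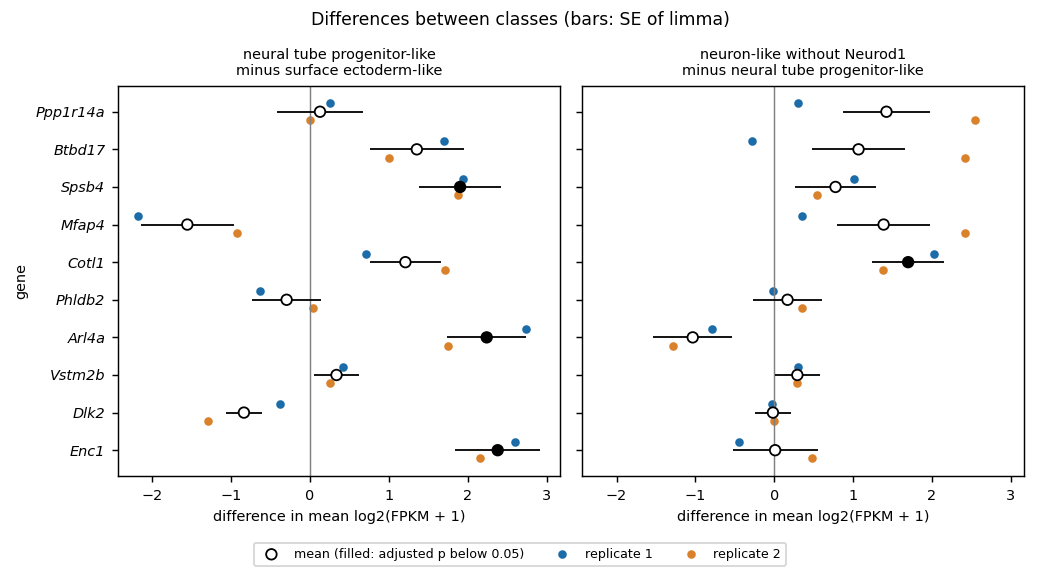
Differences in mean log2(FPKM + 1) between classes for the 10 genes, as the mean over replicates with its standard error (black, filled where the adjusted p is below 0.05, with Dlk2 always open) and in replicate 1 (blue) and replicate 2 (orange). Arl4a, Enc1 and Spsb4 are filled and lie to the right on the first panel, and Cotl1 is filled on the second.

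Among cells with Neurod1 below 10 FPKM, neurons were compared with neural tube progenitors. Low levels of Neurod1 were not excluded by this gate. The Neurod1 mean was higher in these neurons than in the progenitors on 4 of 6 plates and lower on 1. The part of low Neurod1 in the differences below was not tested. Cotl1 was higher in neuron-like cells without Neurod1, at 4.42 and 4.4 in the 2 replicates against 2.4 and 3.02 in neural tube progenitor-like cells (difference 1.70, SE 0.45, adjusted p = 0.0481, higher on 6 of 6 plates). All 28 of these neurons held it, with 2.03 to 170 FPKM, as did 60 of 85 progenitors. Cotl1 was the 1 member of the 10 to pass, while over all genes 2.3% passed, 1.52% higher and 0.781% lower. The call was close to the threshold and was lost after the 5-fold correction for transfer (adjusted p = 0.0707). It was also lost at gates of 1 and 30 FPKM (adjusted p = 0.0757 and 0.129) and when the mean FPKM was logged (adjusted p = 0.278). A 10-fold correction by linked wells of the same plate kept it.

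In the same comparison Ppp1r14a, Mfap4 and Btbd17 differed between replicates. The differences for Ppp1r14a were 0.30 and 2.54 in replicates 1 and 2 (adjusted p = 0.231), for Mfap4 0.35 and 2.42 (adjusted p = 0.295) and for Btbd17 -0.28 and 2.42 (adjusted p = 0.458). Arl4a had a lower mean in these neurons, 2.64 and 1.44 against 3.43 and 2.72 (difference -1.03, SE 0.50, adjusted p = 0.377), and Enc1 differed by 0.01 (SE 0.54). Isl1 was positive in 17.9% of the neuron-like cells without Neurod1.

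Btbd17 was not confined to Neurod1-positive cells. It was found in 22 of 85 neural tube progenitor-like cells, up to 744 FPKM, and in 15 of 28 neuron-like cells without Neurod1, up to 729 FPKM, as high as anywhere in the series. Over these 113 cells the 6 genes with the highest correlation with Btbd17 were Miat (0.62), Srrm4 (0.61), Dll3 (0.60), Plk3 (0.60), Gadd45g (0.59) and Nhlh1 (0.59), looked up after its values had been seen. Dll3 encodes a protein related to the Notch ligands, Nhlh1 a neuronal transcription factor and Srrm4 a neural splicing factor. In the 45 of these cells with no source well the same 6 correlations ran from 0.54 to 0.79.

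Whether the genes go with Neurog1 inside the early neuroblast-like class was asked as well. At 10 FPKM replicate 1 held 0 Neurog1-positive cells, so the split was moved to 1 FPKM after the data had been seen, which gave 3 positive and 15 low cells in replicate 1 and 15 and 31 in replicate 2. No gene of the 10 passed, with 0.0293% of all genes passing, and 2 of the 10 had an unadjusted p below 0.05. Cotl1 differed by 1.66 (SE 0.50, adjusted p = 0.186, 0.96 and 2.37 in the replicates) and Enc1 by 1.54 (SE 0.57, adjusted p = 0.262, 1.15 and 1.93). The 3 genes that passed were Neurog1 itself, the zinc finger factor Prdm12 (3.41, SE 0.54, adjusted p = 0.0133) and Fbxo32 (2.39, SE 0.40, adjusted p = 0.0186). After correction for transfer, which left 4 positive and 11 low cells in replicate 1 and 20 and 16 in replicate 2, 1 gene passed, Neurog1 itself, and Prdm12 (adjusted p = 0.125), Fbxo32 (adjusted p = 0.125), Cotl1 (1.07, adjusted p = 0.591) and Enc1 (1.36, adjusted p = 0.608) did not. Prdm12 and Fbxo32 were also lost at a gate of 30 FPKM (adjusted p = 0.276 and 0.0685) and when the mean FPKM was logged (0.285 and 0.0607), and Fbxo32 without the filter (0.0673). As deposited, both Cotl1 and Enc1 were higher in the Neurog1-positive cells on 5 of 5 plates that held both kinds. With only 3 positive cells in replicate 1, its plate means rest on very few cells. Plates of a replicate are also not independent samples, so this count adds no test.

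Close relatives of the 10 genes, which unlike the 10 were not chosen by level, were set beside them. Of 24 relatives with a row, 0 had their highest mean in early neuroblast-like cells. The count for differentiating neuron-like cells was 8, with Ppp1r14b, Cfl1, Dbn1 and Twf1 among them. Ppp1r14a and Cotl1 were highest in that class too. The 8 include Fcna, which was at 0 in every class and so has no highest class, and Lgals3bp, at a mean of only 0.03. Only 15 of the 24 passed the filter on low values. The share of all genes with their highest mean in each class was not counted, so these counts are not read as a trait of the relatives. Ppp1r14b, the sister of Ppp1r14a, reached 100% of early neuroblast-like cells at a mean log2(FPKM + 1) of 6.87 and stood in otic epithelium-like cells at 6.5, whereas Ppp1r14a stood at 5.54 and 0.06. The actin-severing gene Cfl1, a relative of Cotl1, averaged 8.13 in early neuroblast-like cells against 5.19 for Cotl1. For the other members the highest relative was below the member: Phldb1 averaged 0.27 against 4.66 for Phldb2, Arl4c 0.28 against 3.66 for Arl4a, Dlk1 0.52 against 1.18 for Dlk2 and Klhl25 0.80 against 6.28 for Enc1. Vstm2l averaged 0.14 against 1.96 for Vstm2b, Fibcd1 0.02 against 6.25 for Mfap4, and Lgals3bp was at 0 against 4.16 for Btbd17. Spsb3 averaged 2.29 in early neuroblast-like and 2.22 in otic epithelium-like cells, against 5.21 and 1.67 for Spsb4. FPKM is per length of transcript, but whether different genes are read equally well in these libraries was not tested. These levels are thus compared only roughly.

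The partners of these proteins were counted in the comparison of neural tube progenitor-like with surface ectoderm-like cells. Of 8 genes for microtubule anchoring at the cortex, the pathway of Phldb2, the kinesin Kif21a was higher (2.83, SE 0.63) and Kank1 lower (-2.11, SE 0.40). Of 5 Arf6 and cytohesin genes 1 was lower, Arl4c (-1.11, SE 0.34), and of 5 cullin ligase genes 1 was higher, Cul5 (1.48, SE 0.45), a partner of SOCS-box adaptors such as Spsb4. Among the 15 relatives tested 2 were lower, Dstn (-1.46, SE 0.26) and Arl4c. Median differences of these 4 lists lay between -0.43 and -0.14, against -0.03 over all genes tested, of which 2.22% passed higher and 5.06% lower.

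In neuron-like cells without Neurod1 against neural tube progenitor-like cells, and in the Neurog1 split, 0 genes of these 4 lists passed. The proneural list of 13 genes had 3 higher and 0 lower in neural tube progenitor-like cells against surface ectoderm-like cells (Tagln3, Dll1 and Mfng, 2.13 to 2.70), where 2.22% of all genes passed higher. In neuron-like cells without Neurod1 against neural tube progenitor-like cells it had 3 higher and 0 lower (Tagln3, Nhlh2 and Dll3, 2.26 to 2.35), where 1.52% of all genes did. In the Neurog1 split it had 1 higher, Neurog1 itself.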

How the data were processed

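Per the submitters' processing notes, reads were processed with cutadapt, FastQC, TopHat, Bowtie, Bowtie2, Cufflinks and SAMtools, with mm10 named as build and no versions given. The deposited table has 1 column per cell, and its values are read here as log2(FPKM + 1) because 99.8% of those above 0 convert back to numbers of 6 significant digits. Read depth is unknown, and 74.9% of values are 0. Of 19659 rows, 132 with repeated identifiers, 4 with a shared symbol and those with no GENCODE M21 match were left out.

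Classes were gated at 10 FPKM, doublets were not called (1 sorted cell per well), and no 2 cells had identical values. Means of log2(FPKM + 1) per class and replicate (9 classes with at least 3 cells in each) were fitted with limma 3.58.1 in R 4.3.3, with trend and Benjamini-Hochberg adjustment over 10241 genes at an FPKM of 1 or more in 5% of cells or more, called at an adjusted p below 0.05. A further class of Neurod1- and Stmn2-positive cells entered only the estimate of the spread, since a gene that marks it is not reported here. The fit had no replicate block and was tested on simulated data. The 10 genes and all lists were chosen with earlier results of these data known. All 10 are named, with, per list and comparison, up to 3 genes that passed with the same sign in both replicates, the highest relative of each member, and the genes with the highest correlation.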

Additional observations from a re-analysis of the deposited data

How the results depend on the processing

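The count of genes with their highest mean in early neuroblast-like cells, 5 as deposited, was 8 after the 5-fold correction by source well (added after seeing the data), 8 at a gate of 1 FPKM and 4 to 5 with either replicate left out (without replicate 1, Dlk2 was highest in surface ectoderm-like cells, and without replicate 2 Enc1 in neural tube progenitor-like cells, 5.80 against 5.79). With the mean FPKM logged Enc1 was highest in neuron-like cells without Neurod1 (7.47 against 7.13 in early neuroblast-like cells). Arl4a, Phldb2 and Vstm2b were among them in each. For neural tube progenitor-like against surface ectoderm-like cells, 4 of the 10 passed with Dlk2 counted, and 5 with the mean FPKM logged, but 2 at a gate of 30 FPKM, 1 without the filter on low values, 2 with the 10-fold and 2 with the 5-fold correction. For neuron-like cells without Neurod1 against neural tube progenitor-like cells, 236 genes passed, and 156 at a gate of 30, 530 with the 10-fold and 472 with the 5-fold correction. Of the 10 genes 1 passed there, with 0 at gates of 1 or 30, 0 when the mean FPKM was logged, 2 with the 10-fold correction (Ppp1r14a joined) and 0 with the 5-fold. The cause of these shifts was not tested. A replicate block gave 800, 274 and 3 genes for these 2 comparisons and the Neurog1 split, and changed no call among the 10. No difference that passed turned its sign under any alternative run. Leaving out a replicate leaves 1 mean per class and no test. The comparisons could not be run in cells with no linked well (110 cells, too few per class), nor the Neurog1 split there or at a gate of 1 FPKM. The Neurog1 split, with 3 genes, gave 23 with the mean FPKM logged, 23 without the filter, 1 with the 10-fold and 1 with the 5-fold correction (all added after seeing the data), and 0 of the 10 in each. Read depth is unknown, so a gene at 0 is one listed at 0.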
